A study of Mus musculus with 12 samples.

Results

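Mouse hindlimb tissue given a lymph node transfer together with ABTAA was compared with hindlimb tissue given the transfer alone, across every gene that could be tested. The samples were taken by their labels: 4 libraries from the group labelled lymph node transfer with ABTAA treatment (VtA1 to VtA4) and 4 from the group labelled lymph node transfer (VLNT1 to VLNT4), 8 of the 12 libraries in the series. The other 4 come from lymphedema hindlimb without either treatment (LE1 to LE4) and entered the statistical fit only to help estimate the spread. All groups are the mouse lymphedema model named in the study's design, and the question the comparison answers is what the antibody adds to the transfer. Strain, age, dose, route and time of sampling were not given in the sources used here. Nothing in the labels says that the replicates came from separate animals, so a p-value here measures the spread among the samples alone, and that spread may be technical.

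Tie2 is a receptor tyrosine kinase of blood and lymphatic endothelium, encoded by Tek. Angiopoietin-1, made by mural and mesenchymal cells, activates it and keeps vessels quiet and tight, whereas angiopoietin-2, made by activated endothelium, mostly blocks it during inflammation. The antibody ABTAA binds and clusters angiopoietin-2, which turns the bound ligand into an activator of Tie2. Active Tie2 signals through AKT, which keeps the transcription factor FOXO1 out of the nucleus, and Angpt2 is itself a FOXO1 target.

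Library totals of the 8 samples were 56.3 to 72.5 M counts. Xist was at or near 0 and the Y-linked genes Ddx3y, Kdm5d, Uty and Eif2s3y were read in every library, as in tissue of 1 sex. Skeletal muscle genes took 12.5% ± 5.25 of the counts in VLNT and 19.9% ± 1.92 in VtA (SD, n = 4 each). Muscle was thus read in all 8 libraries, which does not show the site that was sampled. VtA1 lay farthest from the other libraries of its group. No gene was targeted in this design, so no gene can serve to check the treatment label.

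No gene was called different between the groups. Levels are given as CPM (counts scaled by TMM to a common library size), and log2 fold changes are VtA minus VLNT with the standard error (SE) from edgeR's quasi-likelihood test. Of 19740 genes tested, 0 (0%) passed an adjusted p of 0.05, and the smallest adjusted p was 0.595, for Tcf23. At an unadjusted p under 0.05, 1058 genes (5.36%) were lower in VtA and 60 (0.304%) were higher, where 987 in all would be drawn at that threshold with no difference anywhere. The other tests disagreed in size: DESeq2 called 151 genes lower and 1 higher, and limma-voom with sample weights called 1977 lower and 1629 higher.

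A count that needs no fit was also taken. In 1642 genes (8.32%) all 4 VtA libraries lay below all 4 VLNT libraries, and in 1477 (7.48%) all 4 lay above. Below, groups that separate in this way are said not to overlap, and both shares are the background against which the gene lists are read. The median log2 fold change of all genes was -0.07, and 53.3% of genes had a negative value. Large differences were mostly in one direction: 3581 genes were more than 1 log2 unit lower in VtA and 1063 more than 1 unit higher.

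The groups differed in what the pieces of tissue held. Reads of 46 keratinocyte genes took 4.34%, 2.26%, 3.05% and 1.78% of the counts in VLNT1 to VLNT4 and 0.0530%, 0.210%, 1.28% and 0.852% in VtA1 to VtA4, with 95% Wilson limits for the sparsest library, VtA1, of 0.0524% and 0.0536%. Every VtA library held less epidermis by this measure than every VLNT library, and VtA1 held almost none. Reads of 36 sarcomere genes took 6.27%, 14.1%, 10.9% and 18.8% in VLNT1 to VLNT4 and 19.4%, 22.5%, 17.9% and 19.8% in VtA1 to VtA4, so that VLNT4 lay inside the range of VtA. In bulk tissue, fewer cells of a type and less RNA per cell cannot be told apart. The 13 mitochondrially encoded genes took 12.8% ± 1.48 in VLNT and 18.6% ± 5.17 in VtA (SD, n = 4 each), and the groups overlapped at VtA3.

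**Figure D1:**
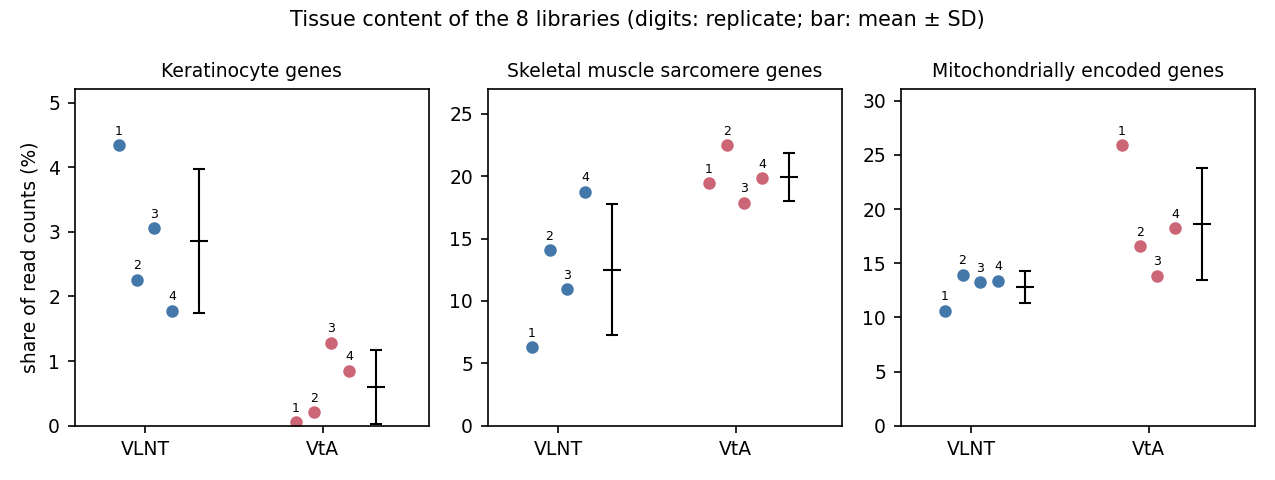
Share of read counts (%) in keratinocyte, skeletal muscle sarcomere and mitochondrially encoded genes for each VLNT and VtA library (points, digits give the replicate; bars give mean ± SD, n = 4). The 4 VtA libraries sit at 0.0530% to 1.28% for keratinocyte genes, below all 4 VLNT libraries.

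Among the ligands of Tie2, Angpt1 was higher on average with ABTAA and Angpt2 lower, and neither difference passed the test. Angpt1, the activating ligand, was at 6.47, 13.2, 7.37 and 6.24 CPM in VLNT1 to VLNT4 and 21.5, 12, 7.71 and 10.9 CPM in VtA1 to VtA4. The groups overlapped, VtA1 standing highest and VLNT2 above 3 of the 4 VtA libraries, with a log2 fold change of 0.64 ± 0.431 (adjusted p = 0.653, edgeR). Angpt2, the target of the antibody, was at 15.2, 7.42, 6.75 and 3.3 CPM in VLNT1 to VLNT4 and 5.41, 4.71, 3.83 and 3.26 CPM in VtA1 to VtA4. It was low in all VtA libraries, but VLNT4 reached the same level as VtA4, and the log2 fold change was -0.92 ± 0.471 (adjusted p = 0.653, edgeR).

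Among the receptors and their regulators, Tek was at 15.8, 28.5, 29 and 31.6 CPM in VLNT1 to VLNT4 and 44.1, 38.9, 32.7 and 31.9 CPM in VtA1 to VtA4. Its groups did not overlap, although VLNT4 and VtA4 all but touched, and the log2 fold change was 0.49 ± 0.433 (adjusted p = 0.654, edgeR). Tie1, the partner receptor of Tie2, had a log2 fold change of 0.40 ± 0.343. Ptprb, the phosphatase VE-PTP that removes phosphate from Tie2, was at 20.4, 48.3, 47 and 72.4 CPM in VLNT1 to VLNT4 and 116, 87.7, 44.4 and 80.8 CPM in VtA1 to VtA4, and its groups overlapped at VtA3. Svep1, a matrix protein that binds Tie receptors and is needed for lymphatic growth, was at 75.9, 55.7, 62.3 and 29 CPM in VLNT1 to VLNT4 and 25, 22.8, 27.3 and 32 CPM in VtA1 to VtA4. Every VtA library was low, as was VLNT4, and the log2 fold change was -1.06 ± 0.432 (adjusted p = 0.653, edgeR). Foxo1 was nearly level, at a log2 fold change of -0.05 ± 0.284, and its sign turned positive under 6 of the alternatives tried.

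Of the 18 genes in the list of Tie ligands, receptors and partners, 12 were lower and 6 higher in VtA, with a median log2 fold change of -0.11 beside -0.07 for all genes. Only Svep1 had an unadjusted p under 0.05. Of 16 FOXO1 targets, 4 were lower and 12 higher, with a median of 0.24 (0.12 without VtA1 and 0.15 without VLNT1), and none had an unadjusted p under 0.05 or groups that did not overlap.

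To set vessel genes against one another, 16 ratios between genes were taken in each library, most of them within endothelium and some, such as Angpt2 relative to Angpt1, across cell types. They are ratios of CPM on a log2 scale, read between libraries only and not as levels of one gene against another. Angpt2 relative to Angpt1 was 1.23, -0.83, -0.13 and -0.92 in VLNT1 to VLNT4 and -1.98, -1.34, -1.01 and -1.74 in VtA1 to VtA4. All VtA values lay below all VLNT values, with a difference in means of -1.36 (exact 2-sided permutation p = 0.0286, the smallest that 4 against 4 allows; adjusted p = 0.229 over the 16 ratios). Without VLNT1 the difference was -0.89. Angpt1 relative to Pdgfrb, a marker of the mural cells that make Angpt1, was -3.28, -2.84, -3.22 and -3.01 in VLNT1 to VLNT4 and -1.24, -2.58, -2.64 and -2.56 in VtA1 to VtA4. The groups did not overlap here either, with a difference of 0.83 and the same exact permutation p of 0.0286 (adjusted p = 0.229), and VtA1 stood well above the other 3. Without VtA1 the groups still did not overlap and the difference was 0.49.

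Relative to Cdh5, the gene of the endothelial junction protein VE-cadherin, no difference in Tek beyond the spread was detectable. Its log2 ratio was -1.13, -1.54, -1.32 and -1.47 in VLNT1 to VLNT4 and -1.51, -1.76, -0.76 and -1.79 in VtA1 to VtA4. The ranges lay across each other, with a difference of -0.09 (exact permutation p = 0.771, adjusted p = 0.882) that turned positive with Pecam1 in place of Cdh5 (0.27). Plvap, which forms the diaphragms of leaky endothelium, differed by -1.31 relative to Cdh5 (exact permutation p = 0.0571, adjusted p = 0.229), and by -0.90 without VLNT1. Sele, the adhesion molecule E-selectin, differed by -3.70 relative to Cdh5 at the same p-values, with VtA1 at 0 counts of Sele, and by -2.26 without VtA1. Angpt2 relative to Cdh5 differed by -1.36 (exact permutation p = 0.0857, adjusted p = 0.254), and by -0.69 without VLNT1. None of the 16 ratios passed after adjustment.

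**Figure D2:**
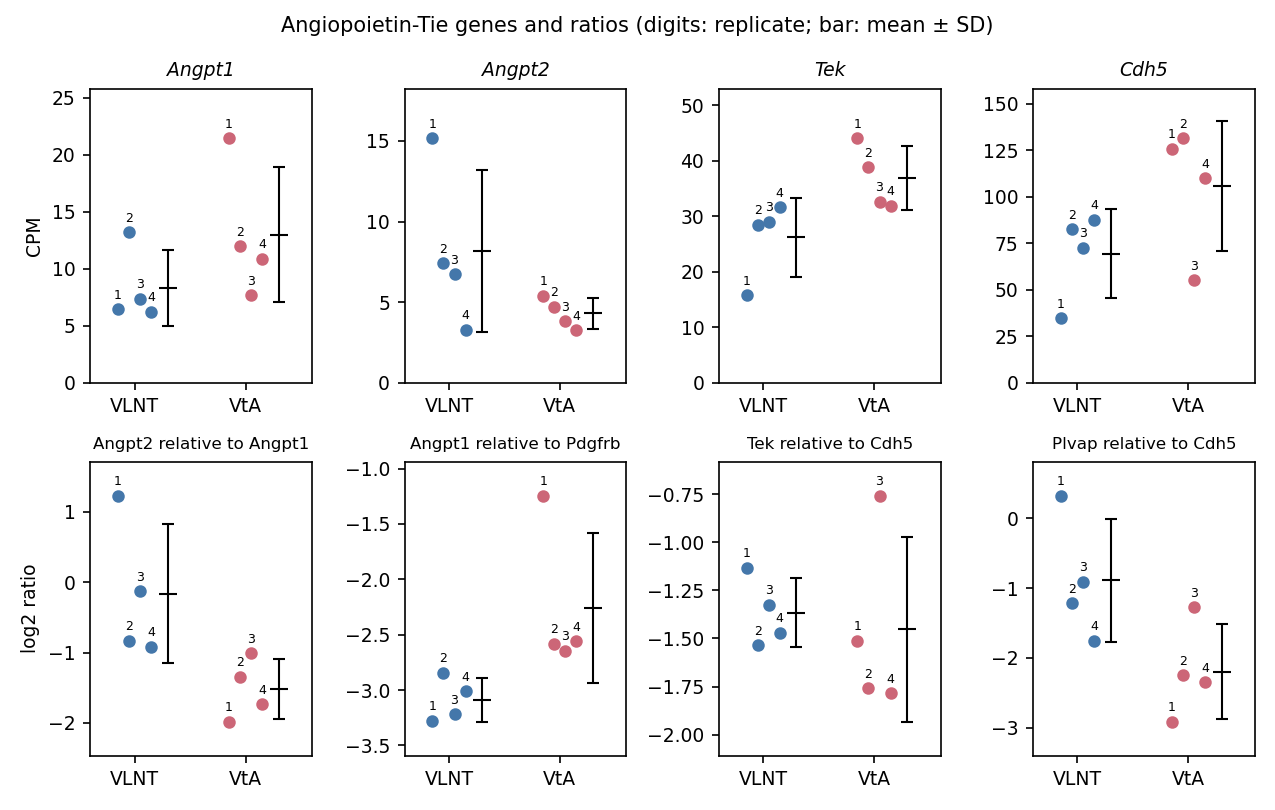
Upper row, CPM of Angpt1, Angpt2, Tek and Cdh5 in each VLNT and VtA library; lower row, log2 ratios of gene pairs (points, digits give the replicate; bars give mean ± SD, n = 4). Angpt2 relative to Angpt1 separates the groups, with a difference in means of -1.36, while Tek relative to Cdh5 does not.

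Genes of blood endothelial identity were slightly higher in VtA as a group, without a member that passed the test. Of 26 such genes, 24 were higher and 2 lower, with a median log2 fold change of 0.40 (0.23 without VLNT1) beside -0.07 for all genes, and 1 had groups that did not overlap. Kdr, the main VEGF receptor of blood vessels, was at 21.5, 49.7, 50.5 and 50.8 CPM in VLNT1 to VLNT4 and 109, 77.9, 45.8 and 72.6 CPM in VtA1 to VtA4. VLNT1 was far below the other libraries and VtA3 lay within the VLNT range. Cdh5 had a log2 fold change of 0.61 ± 0.569 and Erg, a transcription factor of endothelial identity, one of 0.53 ± 0.292. Vegfa, the ligand of Kdr, was at 46.7, 144, 158 and 204 CPM in VLNT1 to VLNT4 and 256, 304, 179 and 209 CPM in VtA1 to VtA4, and the pericyte gene Rgs5 was at 112, 323, 179 and 225 CPM in VLNT1 to VLNT4 and 582, 369.6, 252 and 348 CPM in VtA1 to VtA4. In both, VLNT1 was lowest and VtA3 the lowest of its group. Of 10 VEGF ligands and receptors 6 were higher, with a median of 0.37 (0.22 without VtA1 and 0.24 without VLNT1), and of 14 smooth muscle and pericyte genes 9 were higher, with a median of 0.23 (0.08 without VtA4 and 0.14 without VLNT3). The median of the blood endothelial list was 0.10 once the fast muscle level of each library entered the fit. That level was the mean log2 CPM of the 23 fast sarcomere genes described below.

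Lymphatic endothelial genes were lower in most cases, by a small median, and no member passed the test. Of 25 tested, 18 were lower and 7 higher, where 53.3% of all genes were lower. The median log2 fold change was -0.20 (-0.10 without VtA1) beside -0.07 for all genes, and 0 members had groups that did not overlap. Reads of the list took 0.0508% ± 0.00862 of the counts in VLNT and 0.0354% ± 0.00532 in VtA (SD, n = 4 each). These shares overlapped at VLNT4 and VtA4. Prox1, the transcription factor that sets lymphatic identity, was at 5.77, 3.72, 4.0 and 3.82 CPM in VLNT1 to VLNT4 and 3.25, 2.95, 2.87 and 4.67 CPM in VtA1 to VtA4. The groups overlapped, with VLNT1 and VtA4 highest, and the log2 fold change was -0.33 ± 0.610. Flt4, the receptor of VEGF-C, had a log2 fold change of -0.18 ± 0.417, Lyve1, the hyaluronan receptor of lymphatic capillaries, one of -0.50 ± 0.532, and Vegfc one of -0.09 ± 0.339. Relative to Prox1, Flt4, Lyve1 and Ccl21a differed by 0.11, -0.07 and -0.19 (exact permutation p of 0.743, 0.914 and 0.686). Prox1 relative to Cdh5 differed by -0.95 (exact permutation p = 0.114, adjusted p = 0.254), with groups that overlapped and VLNT1 highest.

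The 2 lymphatic list members at an unadjusted p under 0.05 belong to the machinery that processes VEGF-C, and they lay in opposite directions. Ccbe1, which helps the protease to cleave VEGF-C, was at 17.5, 12.8, 10.1 and 4.01 CPM in VLNT1 to VLNT4 and 3.75, 3.6, 4.35 and 5.01 CPM in VtA1 to VtA4, low in VtA and in VLNT4. Adamts3, the protease itself, was at 1.27, 1.49, 0.991 and 1.5 CPM in VLNT1 to VLNT4 and 2.52, 2.72, 1.2 and 5.0 CPM in VtA1 to VtA4, and VtA3 lay inside the VLNT range. Their log2 fold changes were -1.41 ± 0.520 and 1.12 ± 0.461 (adjusted p = 0.653 for both, edgeR). Pdpn, which marks lymphatic endothelium and also activated fibroblasts and keratinocytes, was at 35.4, 23.2, 32.3 and 9.53 CPM in VLNT1 to VLNT4 and 5.94, 7.51, 17 and 6.68 CPM in VtA1 to VtA4.

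Genes of endothelial activation and leakage were mostly lower in VtA. Of 16 tested, 13 were lower and 3 higher, the median was -0.89 (-0.50 without VLNT1), and 3 had an unadjusted p under 0.05. Ptgs2, the inducible cyclooxygenase, was at 14.2, 9.29, 41.9 and 1.79 CPM in VLNT1 to VLNT4 and 0.529, 0.651, 1.99 and 1.51 CPM in VtA1 to VtA4, and the urokinase receptor gene Plaur was at 15.6, 10.4, 27.1 and 1.63 CPM in VLNT1 to VLNT4 and 1.41, 2.18, 2.98 and 0.635 CPM in VtA1 to VtA4. Both were high in VLNT1 to VLNT3 and low in VLNT4, which lay within the VtA range, and their log2 fold changes were -3.84 ± 1.14 and -2.92 ± 1.05. Selp, the adhesion molecule P-selectin, had a log2 fold change of -1.14 ± 0.548. These genes are also made by macrophages, fibroblasts and keratinocytes. With the basal keratinocyte level in the fit, the list's median was -0.32. That level was the mean log2 CPM per library of the 18 basal keratinocyte genes described below.

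The genes with the smallest p-values whose groups did not overlap are described next, first the 12 that were lower in VtA. Tcf23, a helix-loop-helix factor on chr5:30968602-30988062, was at 2.52, 2.53, 4.32 and 1.63 CPM in VLNT1 to VLNT4 and 0.0504, 0.0766, 0.111 and 0.0687 CPM in VtA1 to VtA4. Its 4 VtA values lay far below the lowest VLNT value, with a log2 fold change of -5.11 ± 0.784 (unadjusted p = 3.01e-05, adjusted p = 0.595, edgeR). Tcf23 was also the single gene called when only the 8 libraries were fitted (adjusted p = 0.0282). Degs2, which makes the phytoceramides of the skin barrier (chr12:108686792-108702306), was at 22.4, 15.7, 15.4 and 8.86 CPM in VLNT1 to VLNT4 and 0.176, 0.172, 0.473 and 0 CPM in VtA1 to VtA4, so every VtA library was far below the lowest VLNT library.

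Has3, a hyaluronan synthase of epithelia (chr8:106870242-106882902), was at 17.8, 8.91, 44.4 and 21.5 CPM in VLNT1 to VLNT4 and 6.4, 3.49, 3.97 and 5.7 CPM in VtA1 to VtA4. All VtA libraries were low and the log2 fold change was -2.24 ± 0.474, the smallest SE among the 12 genes. Tubb3, a beta tubulin best known from neurons, was at 15.4, 6.98, 9.95 and 2.19 CPM in VLNT1 to VLNT4 and 0.302, 0.690, 0.431 and 0.378 CPM in VtA1 to VtA4, with VLNT4 lowest of its group and still above all VtA libraries. Slc7a11, the cystine importer, was at 15.1, 18.6, 38.6 and 2.03 CPM in VLNT1 to VLNT4 and 0.151, 0.153, 0.723 and 0.532 CPM in VtA1 to VtA4. Chil1, a chitinase-like protein of activated macrophages and epithelia, was at 70.1, 16.5, 25.1 and 22 CPM in VLNT1 to VLNT4 and 0.151, 1.02, 1.11 and 0.429 CPM in VtA1 to VtA4, and VLNT1 stood highest. The log2 fold changes of these last 3 were -4.25 ± 0.964, -5.55 ± 1.34 and -5.61 ± 1.3.

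The remaining 6 of the 12 genes had no reads in most VtA libraries. Tmprss11d, an airway-type serine protease, was at 3.69, 3.3, 1.83 and 0.601 CPM in VLNT1 to VLNT4 and had 0 counts in all 4 VtA libraries, which makes it at least 41.6-fold lower against a floor of 3 counts per library. LOC115488474 was at least 31.4-fold lower by the same measure, but it lies inside the interval of Krt6a and its reads may not be separable from it. Tmprss11b, Pla2g4d, Csta3 and Il24 had reads in VtA3 alone, at 0.0556, 0.0417, 0.0278 and 0.0556 CPM. In VLNT, Il24, a cytokine of the interleukin 10 family, was at 5.08, 0.435, 5.82 and 0.832 CPM, and Csta3, a stefin-type protease inhibitor, at 32.6, 15.6, 8.68 and 0.863 CPM. VLNT4 was the lowest or among the lowest of its group for all 6. Over all genes tested, 169 had 0 counts in every VtA library, against 1 with 0 counts in every VLNT library.

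The genes higher in VtA by the same rule differed less and were more mixed. Dusp10, a phosphatase of the p38 and JNK kinases (chr1:184034381-184075636), was at 17, 33.7, 27.5 and 17.4 CPM in VLNT1 to VLNT4 and 56.7, 85.9, 67.3 and 97.6 CPM in VtA1 to VtA4. The lowest VtA library was above the highest VLNT library by more than either differed from its neighbour, with a log2 fold change of 1.69 ± 0.672 (adjusted p = 0.653, edgeR). Thrsp, a regulator of fat synthesis, was at 6.36, 6.74, 4.45 and 6.7 CPM in VLNT1 to VLNT4 and 11.2, 15.1, 9.15 and 13.2 CPM in VtA1 to VtA4, a narrow range in each group, with a log2 fold change of 1.00 ± 0.385. Bmpr1b, a receptor of bone morphogenetic proteins, was at 2.32, 4.06, 4.45 and 5.46 CPM in VLNT1 to VLNT4 and 10.1, 6.01, 6.19 and 8.02 CPM in VtA1 to VtA4, with VLNT4 and VtA2 close together.

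Gimap6, a GTPase of lymphocytes and endothelium, was at 11.8, 13.9, 10.5 and 10.003 CPM in VLNT1 to VLNT4 and 24.5, 17.3, 17.5 and 14.8 CPM in VtA1 to VtA4, and its log2 fold change was 0.68 ± 0.288. Baiap2l2, an adaptor of membrane curvature, was at 0.538, 1.06, 0.884 and 0.647 CPM in VLNT1 to VLNT4 and 2.12, 2.34, 1.75 and 2.37 CPM in VtA1 to VtA4, with all VtA values above all VLNT values and a log2 fold change of 1.45 ± 0.510. Lrtm2 and Gucy2g, both at or below 1.07 CPM in every VLNT library, had log2 fold changes of 2.21 ± 0.794 and 1.58 ± 0.602. Sccpdh, Fgfr1op, Zfp85, C8g and Gm40863 completed the 12, with log2 fold changes of 0.81, 0.57, 0.77, 1.27 and 1.55. The adjusted p of all 12 was 0.653.

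**Figure D3:**
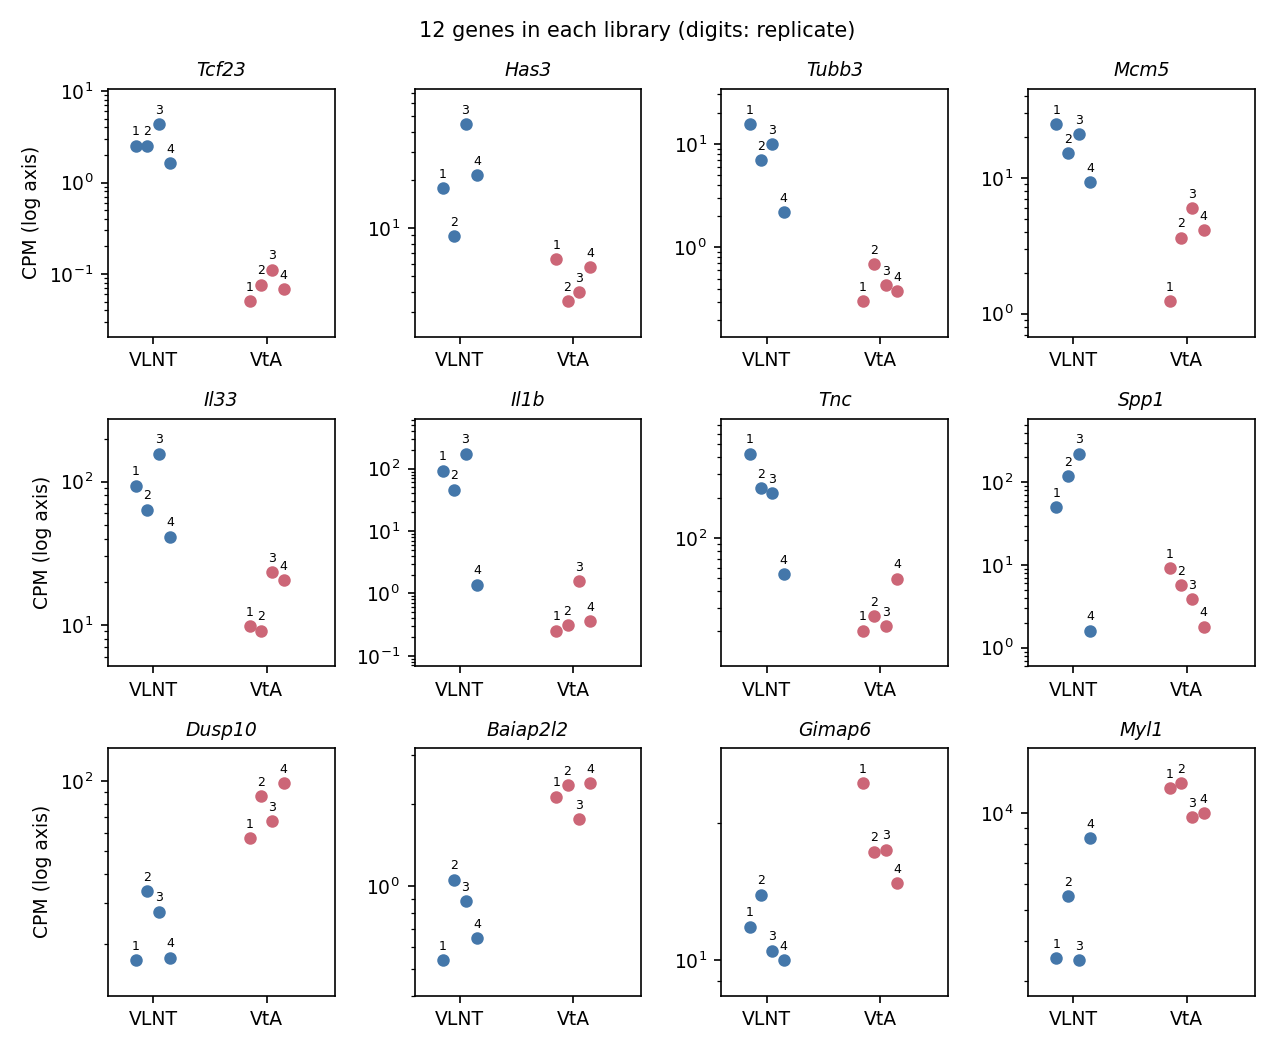
CPM on a log axis of 12 genes in each VLNT and VtA library (points, digits give the replicate). Il1b and Spp1 are high in VLNT1 to VLNT3 and low in VLNT4 and VtA, whereas Tcf23, Has3 and Dusp10 separate the groups in all 8 libraries.

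Epidermal lists were lower in VtA, and the genes that skin turns on after injury had the largest median difference among the 3 keratinocyte lists. Of 15 wound keratins and stress genes of epidermis, 15 were lower, 12 at an unadjusted p under 0.05 and 9 with groups that did not overlap (8.32% in the background), with a median log2 fold change of -4.99 (-4.85 with the member that had no read in VtA at its bound). Of 27 genes of the cornified envelope and suprabasal layers, 27 were lower and 16 did not overlap, with a median of -2.19. Of 18 basal keratinocyte genes, 17 were lower and 10 did not overlap, with a median of -1.68. With the basal keratinocyte level in the fit, the medians were 0.07 (basal list), -0.03 (cornified list) and -2.44 (wound list). That level is the mean log2 CPM of the basal list itself, so a basal median near 0 was set by the fit. The level also separates the groups, so treatment and epidermal content cannot be told apart by that fit.

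Krt6b, a keratin that is scarce in resting epidermis and abundant in wounds, was at 2913, 3013, 4089 and 722 CPM in VLNT1 to VLNT4 and 0, 0.690, 5.75 and 5.96 CPM in VtA1 to VtA4. It lay between 722 and 4089 CPM with transfer alone and at or below 5.96 CPM in every VtA library. Krt6a, its near-identical neighbour on chromosome 15, was at 2926, 2502, 3712 and 695 CPM in VLNT1 to VLNT4 and 0.101, 4.81, 31.5 and 30.1 CPM in VtA1 to VtA4, and reads of the pair may be split between them by the counting. Rptn, a cornified envelope protein, was at 376, 476, 295 and 151 CPM in VLNT1 to VLNT4 and 1.49, 0.919, 5.66 and 0.944 CPM in VtA1 to VtA4. Sprr1b, a small proline-rich crosslinker of the envelope, was at 372, 167, 330.0 and 60.005 CPM in VLNT1 to VLNT4 and 0.101, 0.0766, 8.25 and 1.6 CPM in VtA1 to VtA4. Flg, filaggrin of the granular layer, was at 1176, 1355, 993 and 1424 CPM in VLNT1 to VLNT4 and 6.65, 19.98, 107 and 75.9 CPM in VtA1 to VtA4. In all 5 genes the groups did not overlap, and VtA1, the library almost without keratinocyte reads, was lowest for Krt6b, Krt6a and Flg. Their log2 fold changes were -9.76 ± 2.58, -7.21 ± 2.27, -7.17 ± 1.83, -6.53 ± 2.05 and -4.56 ± 1.58 (adjusted p = 0.653 for each, edgeR).

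The stretches directly upstream of the 3 cornified envelope genes are shown because they share motif matches. They are from RefSeq promoters on GRCm38.p6, read 5′ to 3′ on the gene's strand up to the base before the annotated start. Capitals mark TATA boxes (TATAAA) and matches to TGANTCA, a loose form of the AP-1 motif with any base (N) at the centre. The 3 TGANTCA matches printed hold A or T there, and the shares given below count this loose form. Sprr1b lies at chr3:92438780-92438899 (minus strand), Rptn at chr3:93393579-93393698 (plus strand) and Flg at chr3:93273426-93273545 (plus strand).
Sprr1b: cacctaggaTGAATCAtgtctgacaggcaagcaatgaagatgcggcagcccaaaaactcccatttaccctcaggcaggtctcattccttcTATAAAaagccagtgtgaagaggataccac
Rptn: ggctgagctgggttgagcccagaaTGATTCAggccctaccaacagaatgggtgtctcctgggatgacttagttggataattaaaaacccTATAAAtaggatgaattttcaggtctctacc
Flg: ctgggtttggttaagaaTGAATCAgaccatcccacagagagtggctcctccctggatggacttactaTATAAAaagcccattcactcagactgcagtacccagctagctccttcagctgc
The TGANTCA match begins 111, 96 and 103 bases before the start, and the TATA match 30, 31 and 53 bases before it. Both strands were searched over 250 bases before to 50 after the start. TGANTCA was in 8 of 24 cornified envelope promoters (33.3%) and the TATA box in 11 of 24 (45.8%). The shares were 6.21% and 9.23% of the 14385 promoters of genes tested. Among all genes lower in VtA with groups that did not overlap, 9.24% held TGANTCA and 10.5% the TATA box. AP-1 is the dimer of FOS and JUN proteins, whose genes are among the immediate early genes. Of 22 immediate early genes 20 were lower in VtA, 7 without overlap, with a median log2 fold change of -1.03. The median was -0.19 with the basal keratinocyte level in the fit. A link between these genes and the motif matches was not tested. Junb was at 88, 74, 134 and 45.2 CPM in VLNT1 to VLNT4 and 5.41, 13.9, 38.3 and 20.2 CPM in VtA1 to VtA4, so the groups did not overlap. A motif match describes the sequence and does not show that a factor was bound.

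The make-up of the epidermal reads also differed, in values chosen for description after the data were seen and given with no test. Read counts of a gene were divided by those of Krt14, the keratin of the basal layer, in VLNT1 to VLNT4 and in VtA2 to VtA4; VtA1 held 32 Krt14 reads and is left out. Per 100 Krt14 reads there were 53.8, 66.6, 74.2 and 34.1 reads of Krt6b in VLNT and 0.511, 0.539 and 0.937 in VtA2 to VtA4. For Krt6a the values were 54, 55.4, 67.4 and 32.9 in VLNT and 3.56, 2.95 and 4.74 in VtA2 to VtA4. For Krt16, which pairs with the Krt6 keratins, they were 44.8, 53, 47.5 and 31.7 in VLNT and 1.63, 4.57 and 2.81 in VtA2 to VtA4. Krt6a, Krt6b and Krt16 were thus low in VtA2 to VtA4 even against the Krt14 reads of the same piece. Krt17, another keratin of wounds and of hair follicles, was not: it was at 19.6, 10.4, 11.1 and 15.8 in VLNT and 26.1, 19.3 and 12 in VtA2 to VtA4, which overlap. In LE1 to LE3 Krt6b was at 17.7, 47.5 and 58.2 reads per 100, and LE4, with 45 Krt14 reads, is left out as well.

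Other epidermal genes went the opposite way or not at all against the same reference. Krt1, the first keratin of cells leaving the basal layer, was at 89.5, 75.2, 58.6 and 106 reads per 100 Krt14 reads in VLNT and 72.7, 94.9 and 87.9 in VtA2 to VtA4, which overlap. Its partner Krt10 was at 94.7, 71.9, 53 and 141 in VLNT and 296, 247 and 269 in VtA2 to VtA4. Krt15, a keratin of resting basal cells, was at 5.7, 2.5, 3.5 and 8.11 in VLNT and 74.9, 23.7 and 61.3 in VtA2 to VtA4. Krt77 was at 9.88, 6.3, 19.4 and 88.7 in VLNT and 259, 177 and 221 in VtA2 to VtA4. Krt10, Krt15 and Krt77 were higher in each of VtA2 to VtA4 than in any VLNT library. The reference matters for some of these. Krt5, the partner of Krt14, was itself at 47.7, 34.4, 50.6 and 87 in VLNT and 197, 122 and 193 in VtA2 to VtA4. Per 100 Krt5 reads, Krt10 was at 105 to 209 in VLNT and 139 to 202 in VtA2 to VtA4, which overlap, while Krt15 and Krt77 still did not overlap. Per 100 Krt10 reads, Krt1 was at 94.5, 105, 111 and 75.3 in VLNT and 24.5, 38.4 and 32.7 in VtA2 to VtA4. Krt6b stayed far lower in VtA2 to VtA4 with Krt5 or Krt10 as the reference, at no more than 0.485 and 0.349 reads per 100, where VLNT held at least 39.3 and 24.3.

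**Figure D4:**
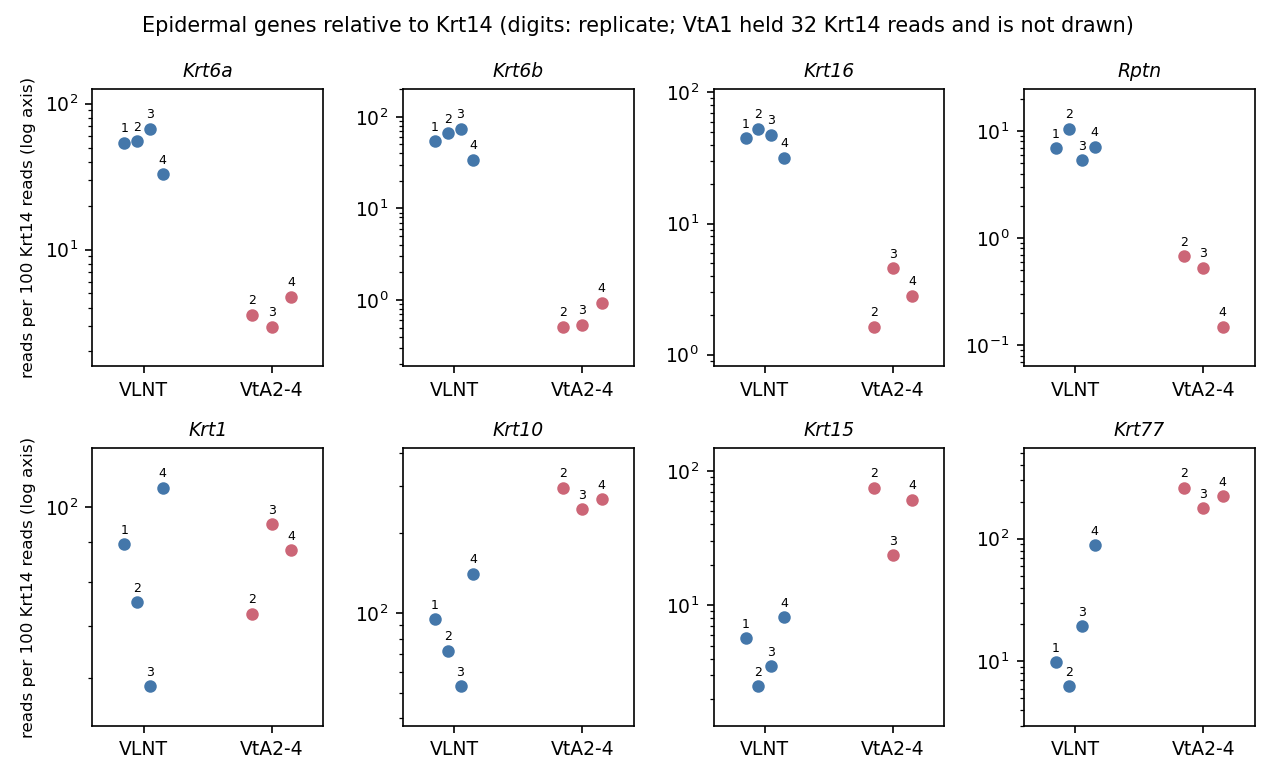
Reads of 8 epidermal genes per 100 reads of Krt14 on a log axis, in VLNT1 to VLNT4 and VtA2 to VtA4 (points, digits give the replicate). Krt6a, Krt6b, Krt16 and Rptn are lower in VtA2 to VtA4, Krt10, Krt15 and Krt77 higher, and Krt1 overlaps.

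Genes named because they had the smallest p-values with the basal keratinocyte level in the fit are described next, and none passed there. Skint5, an immune-like protein of mouse keratinocytes, was at 15.9, 5.53, 12.5 and 15 CPM in VLNT1 to VLNT4 and 0, 4.9, 19.2 and 20.002 CPM in VtA1 to VtA4. It had no reads in VtA1, lay just below all VLNT libraries in VtA2 and above them all in VtA3 and VtA4. Its log2 fold change of -0.15 ± 1.46 became 2.31 with the basal keratinocyte level in the fit. Ano9, a membrane protein of epithelia, was at 76.6, 24.9, 75.6 and 88.8 CPM in VLNT1 to VLNT4 and 0, 21.2, 89 and 77.4 CPM in VtA1 to VtA4, and its log2 fold change of -0.50 ± 1.63 became 2.29. Igfbp3, which binds insulin-like growth factors, was at 36.7, 50.5, 55.5 and 48.6 CPM in VLNT1 to VLNT4 and 19.5, 52.2, 106 and 107 CPM in VtA1 to VtA4, highest in VtA3 and VtA4 and lowest in VtA1.

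Hair follicle and skin appendage genes depended on single libraries. All 20 hair follicle genes tested were lower in VtA, with a median log2 fold change of -5.39, but 1 had groups that did not overlap. Krt83, a hair shaft keratin, was at 87.4, 7.11, 0.119 and 0 CPM in VLNT1 to VLNT4 and 0, 0.115, 0.0974 and 0.0515 CPM in VtA1 to VtA4, so it was high in VLNT1, lower in VLNT2 and at the VtA level in VLNT3 and VLNT4. The median of the list was -2.85 without VLNT1 and -8.46 without VtA3. Of 16 sebaceous gland genes 14 were lower, with a median of -1.48.

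Cell division genes were lower in VtA. Of 25 mitosis genes, 24 were lower, 6 at an unadjusted p under 0.05 and 16 with groups that did not overlap, with a median log2 fold change of -1.90. Of 23 DNA replication genes, 22 were lower, 11 at an unadjusted p under 0.05 and 12 without overlap, with a median of -1.30. Mcm5, a subunit of the replicative helicase, was at 24.9, 15.3, 21.2 and 9.31 CPM in VLNT1 to VLNT4 and 1.23, 3.62, 5.97 and 4.14 CPM in VtA1 to VtA4. Another subunit gene, Mcm7, was at 33.2, 22, 26.2 and 19.1 CPM in VLNT1 to VLNT4 and 9.64, 14.3, 14.5 and 12.9 CPM in VtA1 to VtA4. The highest VtA library was below the lowest VLNT library in both, with log2 fold changes of -2.24 ± 0.729 and -0.97 ± 0.334 (adjusted p = 0.653 for both, edgeR).

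The mitotic kinase gene Plk1 was at 9.45, 8.88, 13.2 and 5.7 CPM in VLNT1 to VLNT4 and 0.277, 1.51, 3.14 and 2.23 CPM in VtA1 to VtA4. Bub1b, of the spindle checkpoint, was at 14.6, 12, 15.7 and 8.62 CPM in VLNT1 to VLNT4 and 0.806, 2.61, 5.27 and 6.34 CPM in VtA1 to VtA4. In both, VtA1 was lowest and VtA3 or VtA4 nearest to VLNT4. Per library, mitosis genes and keratinocyte reads were both lowest in VtA1, but they did not peak in the same library. The mean log2 CPM of the mitosis list was highest in VLNT3 (3.96) and the keratinocyte share in VLNT1 (4.34%). With the basal keratinocyte level in the fit the medians were -0.41 for mitosis and -0.51 for replication. The part of epidermal content in these differences was not tested.

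Promoters of the helicase genes are printed because both carry matches to the E2F and CCAAT motifs known from division genes. The E2F forms searched were TTTCCCGC, TTTGGCGC and TTTCGCGC, and the CCAAT box was CCAAT, on both strands, with capitals marking each match in the same RefSeq build. Mcm5 lies at chr8:75109349-75109508 (plus strand) and Mcm7 at chr5:138171884-138172053 (minus strand).
Mcm5: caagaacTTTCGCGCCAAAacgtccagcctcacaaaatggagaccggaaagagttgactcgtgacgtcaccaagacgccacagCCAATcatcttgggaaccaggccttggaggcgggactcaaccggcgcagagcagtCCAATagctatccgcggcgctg
Mcm7: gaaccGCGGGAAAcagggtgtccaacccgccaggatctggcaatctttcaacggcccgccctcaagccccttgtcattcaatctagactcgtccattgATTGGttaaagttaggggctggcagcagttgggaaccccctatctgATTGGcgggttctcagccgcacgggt
In Mcm5, overlapping E2F matches on both strands begin 153 and 149 bases before the start, and in Mcm7 an E2F match begins 165 bases before it. CCAAT matches begin 77 and 22 bases before the Mcm5 start and 72 and 26 before the Mcm7 start. An E2F motif was in 7 of 18 replication promoters (38.9%) beside 3.02% of all, and the CCAAT box in 16 of 20 mitosis promoters (80%) beside 37.8%. The cell cycle homology motif TTTGAA was in 14 of 20 mitosis promoters (70%) beside 13.4% of all, and in 16.5% of the genes lower in VtA without overlap. For E2F that last share was 3.05%, close to the share in all promoters.

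Acute inflammatory genes were low in all VtA libraries and also in VLNT4. Il1b, the main inflammasome cytokine, was at 92.6, 46.1, 172 and 1.39 CPM in VLNT1 to VLNT4 and 0.252, 0.306, 1.57 and 0.361 CPM in VtA1 to VtA4. The neutrophil attractant gene Cxcl2 was at 24.6, 15.9, 170.4 and 0 CPM in VLNT1 to VLNT4 and 0, 0.0575, 0.153 and 0.103 CPM in VtA1 to VtA4. The macrophage chemokine gene Ccl3 was at 10.04, 6.33, 45.4 and 0.108 CPM in VLNT1 to VLNT4 and 0, 0.172, 0.0974 and 0.0858 CPM in VtA1 to VtA4. Each of these was abundant in VLNT1 to VLNT3, and VLNT4 was at or below the highest VtA library. Their log2 fold changes were -6.95 ± 1.93, -9.28 ± 2.77 and -7.38 ± 1.93 (adjusted p = 0.653 for each, edgeR).

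Of 11 genes tested in the interleukin 1 and 36 list, 11 were lower and 5 did not overlap. Their median log2 fold change was -1.74 (-2.70 without VtA3), and -0.15 with the basal keratinocyte level in the fit. That level separates the groups, so treatment and epidermal content cannot be told apart by that fit. Il36a, Il36b, Il36g and Il36rn had no entry under those symbols, so the 11 say nothing of them. Of 12 CXC chemokines, 11 were lower and 4 did not overlap, with a median of -1.77. Without VLNT1 the median was -0.96. Cxcl5 was at 12.5, 6.33, 12 and 0.0617 CPM in VLNT1 to VLNT4 and Cxcl3 at 2.07, 4.6, 36.4 and 0.231 CPM, and both had 0 counts in every VtA library. Against the floor of 3 counts per library they were at least 136- and 191-fold lower in VtA. The bound for Cxcl3 was 40.7-fold without VLNT3, and the 4 counts of Cxcl5 in VLNT4 were near the floor. Of 16 CC chemokines, 12 were lower and 0 did not overlap, with a median of -1.22 (-2.68 without VtA3). In the interleukin 6 family and its feedback genes, 13 of 16 were lower, with a median of -1.32.

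Among alarmin and type 2 genes, Il33 and Il4ra were low in all VtA libraries and not in VLNT4. Il33, an alarmin stored in the nuclei of keratinocytes, fibroblasts and endothelium, was at 93.8, 63.8, 156 and 41.2 CPM in VLNT1 to VLNT4 and 9.8, 9.08, 23.2 and 20.6 CPM in VtA1 to VtA4. Il4ra, the shared receptor chain of interleukins 4 and 13, was at 70.1, 45.2, 131 and 46.9 CPM in VLNT1 to VLNT4 and 9.52, 15.8, 23.7 and 17.3 CPM in VtA1 to VtA4. In both, VLNT4 was above all VtA libraries, and the log2 fold changes were -2.50 ± 0.770 and -2.14 ± 0.732. Il1rl1, the receptor of interleukin 33, was at 32.8, 7.77, 7.89 and 3.01 CPM in VLNT1 to VLNT4 and 1.69, 2.34, 4.24 and 2.01 CPM in VtA1 to VtA4, with VLNT1 far above the rest and VLNT4 below VtA3. Of 12 genes tested in this list, 10 were lower and 3 did not overlap, with a median of -1.49 (-2.48 without VtA3). The cytokine genes Il4, Il5, Il13, Il9, Il31 and Il25 were under the filter on low counts and were not tested.

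Myeloid cell genes were mostly lower in VtA. Of 25 macrophage and monocyte genes, 23 were lower, 7 at an unadjusted p under 0.05 and 1 without overlap, with a median of -1.44. That median was -0.38 with the basal keratinocyte level in the fit. Cd68, a lysosomal protein of macrophages, was at 46.2, 40.1, 42.2 and 13.1 CPM in VLNT1 to VLNT4 and 4.81, 9.5, 20.7 and 7.4 CPM in VtA1 to VtA4, and VtA3 was above VLNT4. Spp1, osteopontin of activated macrophages, was at 50.1, 118, 221 and 1.6 CPM in VLNT1 to VLNT4 and 9.09, 5.67, 3.85 and 1.79 CPM in VtA1 to VtA4, with VLNT4 below all 4 VtA libraries. Of 15 neutrophil genes, 10 were lower and 5 higher, with log2 fold changes from -6.86 to 4.21. Their median was -1.81 (-3.91 without VtA2), and -0.04 with the basal keratinocyte level in the fit. The mean log2 CPM of the list was 2.03 in VtA2, inside the VLNT range of -0.42 to 2.69. Cxcr2, the chemokine receptor of neutrophils, was at 14.4, 4.84, 21 and 6.74 CPM in VLNT1 to VLNT4 and 0.201, 0.996, 2.18 and 0.704 CPM in VtA1 to VtA4, without overlap. S100a8, a calprotectin subunit of neutrophils and of stressed keratinocytes, was at 257, 231, 126 and 15.8 CPM in VLNT1 to VLNT4 and 0.302, 18.4, 0.473 and 0.584 CPM in VtA1 to VtA4, so VtA2 alone of its group reached VLNT4. C5ar1, the receptor of the complement fragment C5a, was at 14.4, 8.67, 20.1 and 4.67 CPM in VLNT1 to VLNT4 and 2.54, 4.67, 5.84 and 2.11 CPM in VtA1 to VtA4. Of 19 complement genes 17 were lower, with a median of -0.97 (-0.59 without VtA1 and -1.59 without VtA3). With the basal keratinocyte level in the fit it was 0.01.

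Lymphocyte genes were sparse in both groups. The 25 T cell genes tested took 0.0180, 0.00808, 0.0100 and 0.00657% of the counts in VLNT1 to VLNT4 and 0.000462, 0.00183, 0.00880 and 0.00568% in VtA1 to VtA4. Of them 23 were lower and 4 did not overlap, with a median log2 fold change of -1.24 (-2.09 without VtA3). The median was -0.06 with the basal keratinocyte level in the fit. Cd4 was at 11.8, 5.83, 3.99 and 1.85 CPM in VLNT1 to VLNT4 and 0.101, 2.49, 1.15 and 0.309 CPM in VtA1 to VtA4. Foxp3, the transcription factor of regulatory T cells, was at 1.13, 1.46, 1.19 and 0.555 CPM in VLNT1 to VLNT4 and 0, 0, 0.417 and 0.240 CPM in VtA1 to VtA4, so the groups did not overlap at these low levels. The constant chain gene Trac was at 3.37, 2.65, 0.836 and 0.601 CPM in VLNT1 to VLNT4 and 0.176, 0.364, 0.682 and 0.275 CPM in VtA1 to VtA4, where VLNT4 lay below VtA3.

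B cell and lymph node stroma genes took 0.00990, 0.00330, 0.00261 and 0.00186% of the counts in VLNT1 to VLNT4 and 0.000865, 0.00172, 0.00310 and 0.00236% in VtA1 to VtA4. Of 15 tested 11 were lower, with a median of -0.49 that became 0.61 without VLNT1. Plasma cell genes also rested on VLNT1. Igkc, the kappa light chain constant gene, was at 321, 2.18, 0.418 and 1.76 CPM in VLNT1 to VLNT4 and 0.579, 2.45, 2.23 and 0.498 CPM in VtA1 to VtA4. Jchain, which joins polymeric antibodies, was at 32.6, 0.699, 0.275 and 1.29 CPM in VLNT1 to VLNT4 and 0.579, 0.881, 1.38 and 0.155 CPM in VtA1 to VtA4. VLNT1 stood alone in both and the other 7 libraries lay within one range, and without VLNT1 the median of 14 plasma cell genes moved from -1.54 to -0.03.

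Mast cell genes were lower in 13 of 14 cases, with a median of -1.12 that was -0.52 without VLNT1 and -1.90 without VtA3. Hdc, the enzyme that makes histamine, was at 21.1, 9.61, 70.1 and 1.23 CPM in VLNT1 to VLNT4 and 0.327, 0.728, 0.668 and 0.549 CPM in VtA1 to VtA4, without overlap. Fcer1a, a chain of the receptor for IgE, was at 13.9, 2.14, 1.55 and 0.355 CPM in VLNT1 to VLNT4 and 0.302, 0.153, 1.09 and 0.0687 CPM in VtA1 to VtA4, with VLNT1 highest and VLNT4 inside the VtA range. Interferon response genes differed little: 22 of 28 were lower, 0 without overlap and 0 at an unadjusted p under 0.05, with a median of -0.57 (-0.21 without VLNT1). Igtp, an interferon-induced GTPase, was among those higher, at 13.7, 9.08, 9.65 and 11.8 CPM in VLNT1 to VLNT4 and 13.1, 16.1, 17.7 and 17 CPM in VtA1 to VtA4. The interferon motif GAAANNGAA was in 15 of 21 promoters of that list (71.4%) beside 7.60% of all, and in 7.40% of genes lower in VtA without overlap.

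Genes of scar-type matrix were lower in VtA throughout, mostly with overlap. Of 26 fibrosis collagens and matrix genes, 26 were lower, 5 at an unadjusted p under 0.05 and 1 without overlap, with a median log2 fold change of -1.44. The median was -0.65 with the basal keratinocyte level in the fit. The gene without overlap was Tnc, tenascin C of healing tissue, at 425, 234, 217 and 53.6 CPM in VLNT1 to VLNT4 and 20.2, 26, 21.9 and 49.4 CPM in VtA1 to VtA4. VLNT4 and VtA4 were close together, and the log2 fold change was -2.98 ± 0.807. Col12a1, a collagen of fibril surfaces, was at 219, 386, 81.8 and 25.5 CPM in VLNT1 to VLNT4 and 25.4, 21.7, 20.7 and 60.8 CPM in VtA1 to VtA4, with VtA4 above VLNT4.

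Among 20 matrix proteases and inhibitors, 18 were lower and 3 did not overlap, with a median of -1.58. Adamts4, an aggrecanase, was at 18.3, 21.9, 18.1 and 2.99 CPM in VLNT1 to VLNT4 and 1.96, 2.28, 3.46 and 2.25 CPM in VtA1 to VtA4. Mmp10, stromelysin 2 of wound-edge keratinocytes, was at 5.98, 1.56, 3.75 and 0.493 CPM in VLNT1 to VLNT4 and 0, 0, 0.139 and 0 CPM in VtA1 to VtA4. Inhba, the activin A subunit gene, was at 12.2, 11.7, 16 and 1.87 CPM in VLNT1 to VLNT4 and 2.82, 1.86, 1.57 and 3.09 CPM in VtA1 to VtA4. Adamts4 and Inhba were high in VLNT1 to VLNT3 and at the VtA level in VLNT4. The TGF-beta ligands, receptors and targets had a median of -0.23 (-0.11 without VLNT2), with 12 of 18 lower.

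Of 12 hyaluronan genes, 11 were lower, 5 at an unadjusted p under 0.05 and 5 without overlap, with a median of -1.36. Cemip, which breaks down hyaluronan, was at 11.9, 7.72, 12.1 and 3.28 CPM in VLNT1 to VLNT4 and 0, 0, 0.598 and 0.395 CPM in VtA1 to VtA4. Its receptor gene Cd44 was at 156, 104, 205 and 96.3 CPM in VLNT1 to VLNT4 and 11.7, 21.1, 71 and 47.7 CPM in VtA1 to VtA4. Both separated the groups, with VtA1 at or near the bottom.

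Tendon genes lay in the opposite direction, with Tnc as the main exception. Of 13, 10 were higher and 3 lower, with a median of 0.71 (0.24 without VtA4, 0.47 without VLNT4 and 1.12 without VLNT2), and 2 of those higher did not overlap. Scx, the transcription factor of tendon progenitors, was at 2.34, 2.69, 1.91 and 1.83 CPM in VLNT1 to VLNT4 and 5.82, 5.67, 4.05 and 7.19 CPM in VtA1 to VtA4. Every VtA library was above every VLNT library, with a log2 fold change of 1.37 ± 0.620 (unadjusted p = 0.0472, adjusted p = 0.653, edgeR). Chad, a cartilage and tendon matrix protein, was at 8.69, 13.3, 13.6 and 8.31 CPM in VLNT1 to VLNT4 and 23.6, 21, 10.6 and 150.1 CPM in VtA1 to VtA4, so its fold rests on VtA4.

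Muscle and energy genes were higher in VtA by about 1 log2 unit, with small spread between genes and large spread between libraries. All 23 fast sarcomere genes tested were higher, 10 without overlap (7.48% in the background) and 0 at an unadjusted p under 0.05, with a median log2 fold change of 1.10. Myl1, a fast myosin light chain, was at 3524, 5509, 3473 and 8331 CPM in VLNT1 to VLNT4 and 11967, 12375, 9713 and 9973 CPM in VtA1 to VtA4. Tcap, the titin cap of the Z disc, was at 285, 956, 562 and 1024 CPM in VLNT1 to VLNT4 and 2025, 1982, 1453 and 1415 CPM in VtA1 to VtA4. VLNT1 and VLNT3 were lowest for Myl1, and VLNT1 was far lower than the rest for Tcap. The SE was 0.923 and 0.997 log2 units. With the fast muscle level in the fit, the median of the fast list was -0.06. That level is the mean of the same list, so a median near 0 was set by the fit. In the calcium handling list 13 of 14 were higher, and its median went from 1.02 to 0.01 with that level in the fit.

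The 27 nuclear genes of the respiratory chain were all higher, 14 without overlap, with a median of 0.83. Ndufa9, a complex I subunit, was at 101, 151, 112 and 159 CPM in VLNT1 to VLNT4 and 319, 234, 206 and 179 CPM in VtA1 to VtA4. The 13 mitochondrially encoded genes were also all higher, 5 without overlap, with a median of 1.06. All 19 glycolysis and glycogen genes were higher and 1 did not overlap, with a median of 0.99. Gbe1, the glycogen branching enzyme, was at 13.4, 28.6, 30.4 and 38.8 CPM in VLNT1 to VLNT4 and 81.2, 53.7, 35.7 and 48.9 CPM in VtA1 to VtA4. Ppargc1a, a coactivator of mitochondrial genes, was at 6.55, 19, 17.2 and 29.8 CPM in VLNT1 to VLNT4 and 60.8, 42.7, 18.2 and 33.7 CPM in VtA1 to VtA4, where VtA3 lay inside the VLNT range. Car3, a carbonic anhydrase of muscle and fat, was at 683, 982, 576 and 926 CPM in VLNT1 to VLNT4 and 2016, 2569.6, 1172 and 2034 CPM in VtA1 to VtA4, without overlap. Klf15, a glucocorticoid-responsive metabolic regulator of muscle, was at 5.92, 24.9, 19.3 and 26.1 CPM in VLNT1 to VLNT4 and 44.8, 58.5, 31.6 and 41.5 CPM in VtA1 to VtA4, also without overlap. With the fast muscle level in the fit the respiratory chain median was 0.08 for nuclear and 0.42 for mitochondrial genes.

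No difference in the make-up of the muscle itself was detectable beyond the spread. Among the adult myosin heavy chains, compared per length as shares of their summed TPM, Myh4 of the fastest fibres took 89.2% ± 3.47 in VLNT and 89.8% ± 3.96 in VtA (SD, n = 4 each). The difference was 0.552 percentage points (exact 2-sided permutation p = 0.886), and after adjustment over the 4 myosins every p was 1. Slow fibre genes overlapped between the groups, with a median log2 fold change of 0.54 that became -0.14 without VtA1. Of 20 regeneration and denervation genes 16 were higher and 4 lower. Runx1, which is induced in denervated muscle and also made by keratinocytes and blood cells, was lower, at 24.6, 20.6, 22.7 and 9.46 CPM in VLNT1 to VLNT4 and 2.67, 6.93, 7.01 and 7.54 CPM in VtA1 to VtA4, without overlap.

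Fat, nerve and fibroblast lists had medians within 0.5 log2 units of 0 that depended on single libraries. Adipocyte genes had a median of -0.04 (10 of 17 lower) and fibroblast genes one of -0.24 (9 of 14 lower). Schwann cell and myelin genes had one of 0.42 (12 of 15 higher), which became -0.34 without VtA1. As a share of total counts, without TMM, 18 adipocyte genes took 0.205% to 0.270% in VLNT and 0.272% to 0.333% in VtA. These shares did not overlap, although VLNT2 and VtA3 all but touched. Within the fibroblast list Crabp1, a retinoic acid binding protein, was at 69.6, 43.2, 8.49 and 2.85 CPM in VLNT1 to VLNT4 and 0.378, 0.249, 3.44 and 1.39 CPM in VtA1 to VtA4, with VLNT1 and VLNT2 highest. Soat1, which esterifies cholesterol, was at 71.1, 34.3, 87.5 and 20.9 CPM in VLNT1 to VLNT4 and 3.9, 5.92, 22.6 and 13.5 CPM in VtA1 to VtA4.

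Across the 47 lists, 32 medians were below 0 and 15 above. Of their 797 tested members, 122 were lower and 2 higher at an unadjusted p under 0.05. Over all genes tested those shares were 5.36% and 0.304%. Because the lists were chosen with earlier results of these data known, the counts are no independent result. After adjustment over all genes, 0 members passed. The lists of immune cells, skin, matrix and cell division made up most of those lower, and those of muscle, energy metabolism and blood endothelium most of those higher. With the basal keratinocyte level in the fit, medians of the immune lists ran from -0.63 (CXC chemokines) to 0.19 (dendritic cells and MHC class II). Those of matrix proteases and hyaluronan genes were -0.16 and -0.42. The part of epidermal content in these lists was not tested.

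**Figure D5:**
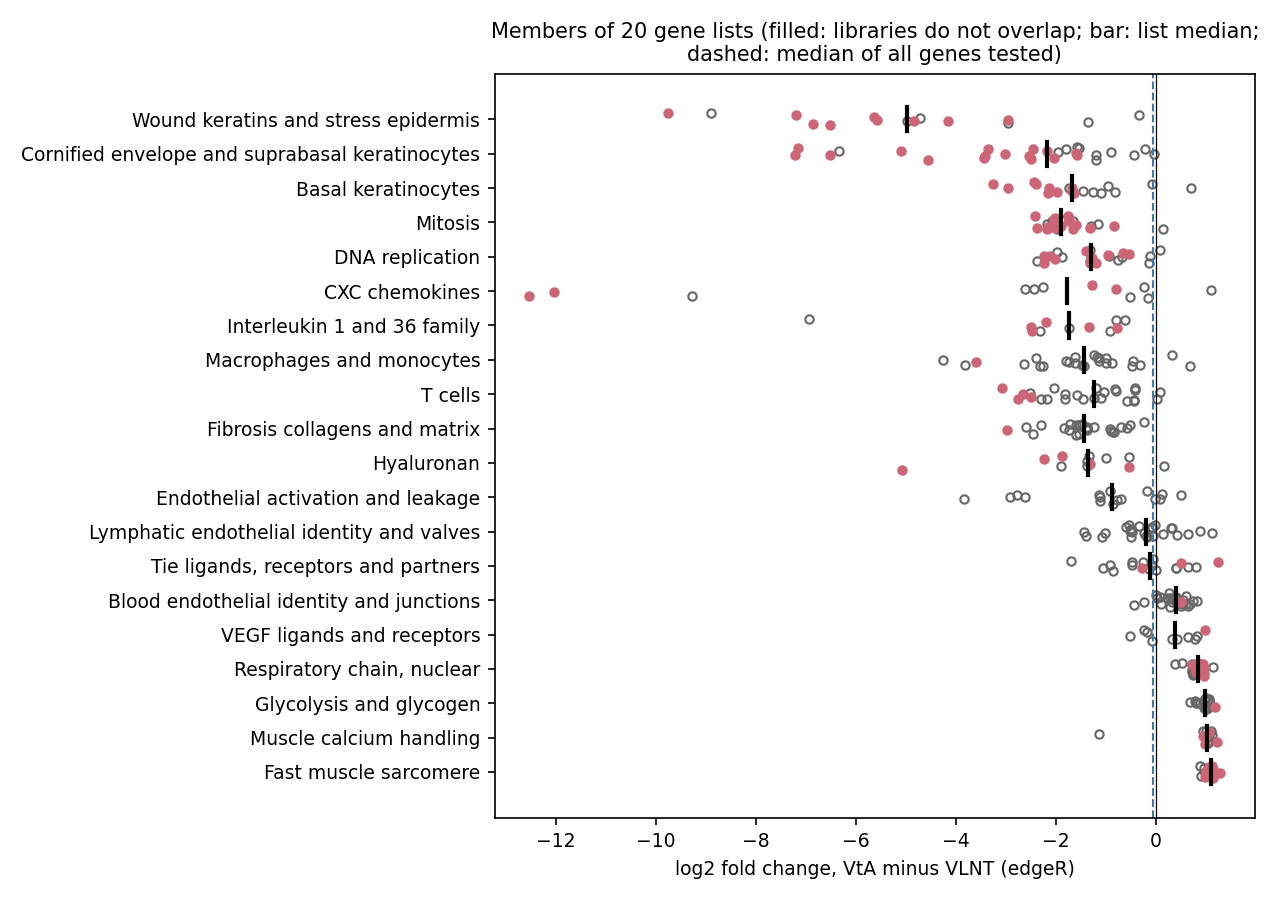
Log2 fold change (VtA minus VLNT) of each tested member of 20 gene lists; filled points have groups that do not overlap, bars mark list medians and the dashed line the median of all genes (-0.07). Fitted values of members without a read in VtA, such as Cxcl5, depend on the prior count and are not bounds. Medians run from -4.99 for wound keratins to 1.10 for fast muscle.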

How the data were processed

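RNA was measured in 12 libraries of mouse hindlimb, of which VtA1 to VtA4 and VLNT1 to VLNT4 are compared. Per the labels' protocols, frozen tissue was extracted with Trizol and polyadenylated RNA was prepared with a stranded TruSeq kit. The tools named in the submitters' processing notes are HISAT2 2.1.0, StringTie 2.1.3b, Trimmomatic and bcl2fastq 2.20.0, and mm10 and GRCh38 appear as builds with no role. Annotation, strand setting and handling of multi-mapped reads were not given in the sources used here, so antisense or overlapping genes and near-identical copies are uncertain.

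The table deposited by the authors holds a whole-number read count per gene and library, per the file headers, for 45777 genes. Its TPM columns, scaled by the authors to one total per library, served for the myosin shares, and its FPKM columns, deposited by the authors with scaling by gene length and library total, for an alternative to them. Of the gene IDs, 45675 matched RefSeq on GRCm38.p6, the source of coordinates and promoters.

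The main test was edgeR 4.0.16 (R 4.3.3), applied to the counts as the authors deposited them, with TMM, the default filter on low counts (19740 genes kept) and 1 fit of 3 group means over the 12 libraries. Benjamini-Hochberg adjustment ran over all genes, with a call under an adjusted p of 0.05, and all tests were 2-sided. CPM and log2 values were computed here from the counts that the authors deposited. Ratios used log2 CPM with 0.5 counts added to each gene and exact permutation over 70 splits. Lists of genes are described by counts and medians. Intervals and floors cover counting error only.

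The comparison, the lists and the rules were chosen with earlier results of these data known. Genes named are the 12 lower and 12 higher with the smallest p among genes at 1 CPM or more in a group whose groups do not overlap, 12 core genes, up to 4 members per list by smallest p, 6 lower and 6 higher in the fit with keratinocyte content, and the genes of the ratios. Krt1, Krt5, Krt10, Krt14, Krt15, Krt16 and Krt77 in the keratin ratios were chosen after their values were seen. Some genes that the rule names are not reported here.

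No pair of libraries within a group was identical (chi-square of at least 118 per degree of freedom), and each library counts as 1 sample. On simulated counts for VtA against VLNT (19143 genes), the test recovered 4% of genes changed 2-fold and 18% changed 4-fold. It recovered 80% changed 16-fold and 88% changed 64-fold, with 4 false calls. Each simulated gene varied independently of the others, so variation shared among genes, as in tissue content, was absent. Recovery in the measured libraries may differ. Alternatives were another normalization (RLE), DESeq2 1.42.0, limma-voom (limma 3.58.1), no filter, the 8 libraries alone, a replicate block, and each library left out. Others had keratinocyte or muscle content as a covariate. Keratinocyte content was the mean log2 CPM of the 18 basal keratinocyte genes, and muscle content that of the 23 fast sarcomere genes.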

Additional observations from a re-analysis of the deposited data

Results flagged for a closer look

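In groups of 4 libraries, a value counts as standing apart when its gap to the nearest other passes the 95% critical value of Dixon's test. Of 234 groups of 4 values checked, 29 held such a value, where chance gives about 1 in 20. VLNT1 gave 11 of them and VtA3 gave 9.

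VLNT1 stood highest of its group for Chil1 (70.1 CPM), Prox1 (5.77 CPM), Lyve1 (20.5 CPM), Il1rl1 (32.8 CPM), Igkc (321 CPM), Jchain (32.6 CPM), Fcer1a (13.9 CPM) and Krt83 (87.4 CPM), and lowest for Kdr (21.5 CPM). It also stood highest in the share of hair follicle reads (0.433%) and of red blood cell reads (0.0799%).

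VtA3 stood highest of its group for Tmprss11b (0.0556 CPM), Pla2g4d (0.0417 CPM), Csta3 (0.0278 CPM), Il24 (0.0556 CPM), Mmp10 (0.139 CPM), Rptn (5.66 CPM), Il1b (1.57 CPM), Pdpn (17 CPM) and the hair follicle share (0.00800%). For Tmprss11b, Pla2g4d, Csta3, Il24 and Mmp10 the other 3 VtA libraries had 0 counts, so any read in VtA3 would stand apart; the first 4 rest on 2 to 4 counts and say nothing of the library. VtA3 also held the most keratinocyte reads of the VtA group. VtA4 was highest for Col12a1 (60.8 CPM) and Chad (150.1 CPM), and VtA2 for S100a8 (18.4 CPM). VtA1 was lowest for Runx1 (2.67 CPM) and highest for Angpt1 relative to Pdgfrb (-1.24 as a log2 ratio). VLNT3 was highest for Cxcl2 (170.4 CPM) and lowest for Thrsp (4.45 CPM) and Zfp85 (2.48 CPM), and VLNT2 was highest for Angpt1 (13.2 CPM).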

How the results depend on the processing

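The number of called genes depended on the tool and the spread it assumed. Main values were 0 lower and 0 higher, and 0 in both directions with RLE, no filter, a replicate block, keratinocyte content or muscle content. DESeq2 gave 151 lower and 1 higher, limma-voom with sample weights 1977 lower and 1629 higher, the 8 libraries alone 1 lower and 0 higher, and leaving out VtA1 with LE4 1 lower. With 1 library left out the count lower ran from 0 to 10 (10 without LE4) and the count higher was 0. Genes lower without overlap ran from 1673 to 3840 and genes higher without overlap from 1360 to 3430 with 1 library left out; without VLNT4 they were 3461 and 3430, and without VtA3 3840 and 3063. Without a VLNT or VtA library, fewer libraries must lie apart and such a count cannot fall for the same genes. Leaving out an LE library removes none of those compared, and the cause of that movement was not tested. At an unadjusted p under 0.05, the 8 libraries alone gave 2767 lower and 2095 higher, keratinocyte content 193 and 165, and muscle content 306 and 45. The cause of the other differences was not tested.

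No pairing by replicate number was seen: same-number deviations correlated at -0.23, -0.0049, 0.017 and 0.020. Such correlations cannot exclude a pairing by animal, batch or day. With a replicate block, fitted on the 8 libraries alone, 2198 genes were lower and 1270 higher at an unadjusted p under 0.05, and 0 were called. Those 8 libraries without the block gave 2767 and 2095.

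Of 2115 values of 101 named genes under alternatives, 106 became calls and 21 changed sign, the latter in 7 genes that were not called. Foxo1 was 0.017 with limma-voom, -0.15 to 0.035 with 1 library left out (positive without VLNT4 or VtA1), 0.035 without VtA1 and LE4, 0.16 with keratinocyte content and 0.11 with muscle content. Vegfc was 0.068 with limma-voom, -0.25 to 0.20 with 1 library left out (positive without VLNT1), 0.037 with keratinocyte content and 0.066 with muscle content. Skint5 was -0.60 to 0.24 with 1 library left out (positive without VLNT1, VtA1 or VtA2), 0.24 without VtA1 and LE4, 2.31 with keratinocyte content and 1.00 with muscle content. Ano9 was 2.29 and 0.50 with keratinocyte and muscle content. Prox1 was 0.011 with muscle content, Flt4 0.055 with limma-voom and Tcap -0.10 with muscle content. Tek relative to Cdh5 was 0.27 with Pecam1 and -0.32 to 0.023 with 1 library left out (positive without VtA2 or VtA4). The count of ratios or myosin shares passing after adjustment was 0 under every alternative run for them. Of 47 list medians, 34 kept their sign under every alternative; the 13 that did not are the Tie, dendritic cell, B cell, interferon, complement, basal keratinocyte, fast and slow muscle, muscle regeneration, muscle atrophy, adipocyte, Schwann cell and fibroblast lists. For the basal keratinocyte and fast muscle lists, the sign changed only with the covariate built from the list itself. The common dispersion of the libraries was 0.470, and depth limits the genes near the floor of 3 counts.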
